A study of Drosophila melanogaster with 12 samples.

Results

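The autophagy genes described here are the 10 genes Atg1, Atg2, Atg3, Atg5, Atg6, Atg7, Atg8a, Atg8b, Atg9 and Atg18a of Drosophila melanogaster, chosen by name from the core autophagy machinery among 13771 genes. The level of each gene was the sum of its transcripts in TPM, which scales the reads of a transcript for its length and for the library total. That is a measure per length, so that levels of different genes can be compared. The study asked how the loss of CLAMP, a zinc finger protein that binds GA-rich DNA and acts in male dosage compensation, alters sex-specific RNA. It sequenced poly-A RNA of whole larvae of the last larval stage (L3) in 12 libraries, 3 for each of 4 groups. Control females and control males were yw, and clamp null females and clamp null males were yw carrying the clamp2 allele (Clampnull in the labels), so yw was shared by all groups. All larvae were raised at 24 °C, and their age in hours was not given in the sources used here. Groups follow the sample titles, since a sex field of the labels gives 1 sex to all libraries of a genotype. Per the study, clamp null larvae fail to form pupae, and males of this genotype die before late L3. The study states that splicing could not be measured in such male larvae, yet it lists them among the larvae sequenced. This limits clamp null larvae as matched stages. The controls are numbered 1 to 3 and the clamp null libraries 4 to 6. The labels give 3 larvae each without saying whether a library pools 3 larvae or holds 1, and separate cultures or crosses are not stated, so SDs and p-values measure the spread between these libraries only. Since whole larvae were used, a lower level may mean fewer cells of a type or less RNA per cell, which cannot be told apart.

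Autophagy encloses cytoplasm in a double membrane, the autophagosome, and delivers it to the lysosome. The Atg1 kinase complex starts the process, a lipid kinase complex with Atg6 marks the membrane, and Atg9, Atg2 and Atg18a bring and transfer lipids to it. Atg7, Atg3 and Atg5 then act in an enzyme chain, similar to that of ubiquitin, which fixes the small protein Atg8 to the growing membrane. In the fly, the hormone ecdysone sets off strong autophagy in the fat body and the salivary gland late in larval life, and Atg8a is the Atg8 used in most tissues.

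The targeted gene, Clamp (FBgn0032979), was at 36.3 to 45.1 TPM in control females and 16.2 to 20.0 TPM in clamp null females, and at 43.4 to 59.2 and 21.4 to 22.8 TPM in males. The summed level of 6 salivary gland glue genes, which mark late L3, was 80113 to 152744 TPM in control females and 115745 to 148188 TPM in control males, against 10.3 to 3544 TPM in clamp null females and 20.9 to 285 TPM in clamp null males. All 4 muscle markers were higher without clamp in both sexes. The summed level of 9 fat body markers was 18641 to 21102 TPM in control females, 9407 to 15215 TPM in clamp null females, 6987 to 11248 TPM in control males and 4533 to 13104 TPM in clamp null males. Its genes went opposite ways, females having 2 called higher and 1 lower, and males 4 called higher and 3 lower. Of 5 midgut markers, 2 were called lower in females and 0 in males. Stage and tissue makeup thus moved with the genotype, and their part in the results was not tested. The clamp null males disagreed with each other. Clamp null male 6 held at least 1 TPM of 499 of 627 genes that were seen in control males but not control females, whereas clamp null males 4 and 5 held 25 and 20 and the clamp null females 14 to 28. The summed level of 8 Y-linked genes was 1.25 to 1.86 TPM in control males and 0.45 TPM in clamp null male 6, and was listed at 0 in clamp null males 4 and 5 and in all 6 female libraries. All of the 0.45 TPM came from Pp1-Y1, listed at 0 in the control males, so this low sum gives little ground to tell clamp null male 6 from 4 and 5. The sex of clamp null males 4 and 5 was therefore not settled by the values examined, and no marker of sex outside the testis was examined by name. They are called male after their titles, and this doubt bears on each value of the clamp null males, on the comparison of the sexes without clamp and on the interaction, which are also given with clamp null male 6 alone in its group. That fit, chosen after seeing the data, assumes that this library varies like the others. The correlation of clamp null male 6 with the other clamp null males was 0.832 and 0.869, across genes, against 0.933 to 0.958 between the other pairs of libraries of a group.

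Loss of clamp was accompanied by a lower level of Atg1, the kinase that starts autophagy, and of Atg7, the enzyme that activates Atg8, in both sexes. In males, Atg8b, Atg2, Atg3 and Atg18a were lower as well, while Atg5, Atg6, Atg8a and Atg9 passed the test in neither sex. All 10 members passed the filter of a mean of 1 TPM. Of the 10, 2 were called lower and 0 higher in females, where 15.6% of the 11145 genes tested were called lower and 9.8% higher by limma at an adjusted p under 0.05. In males, 6 were called lower and 0 higher, where 45.8% of genes were called lower and 11.3% higher. The share of members called in females was therefore close to that of all genes, and the share in males somewhat above it. The median log2 difference of the members was -0.45 in females and -0.80 in males, beside medians of -0.20 and -0.75 over all genes. Of the members, 7 lay below the median of all genes in females and 5 in males. Changes of single genes are therefore also given relative to these medians. Atg1 and Atg7 were called lower in both sexes, as were 13% of all genes tested. Without clamp null males 4 and 5, 5 members were called lower in males and 0 higher, Atg1, Atg3, Atg7, Atg8b and Atg9, beside 3674 lower and 896 higher of 11246 genes. The ranges of the groups did not overlap for 3 members in females and 6 in males, all lower in clamp null larvae. Over all genes, 26.3% and 51.1% lay wholly lower.

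**Figure D1:**
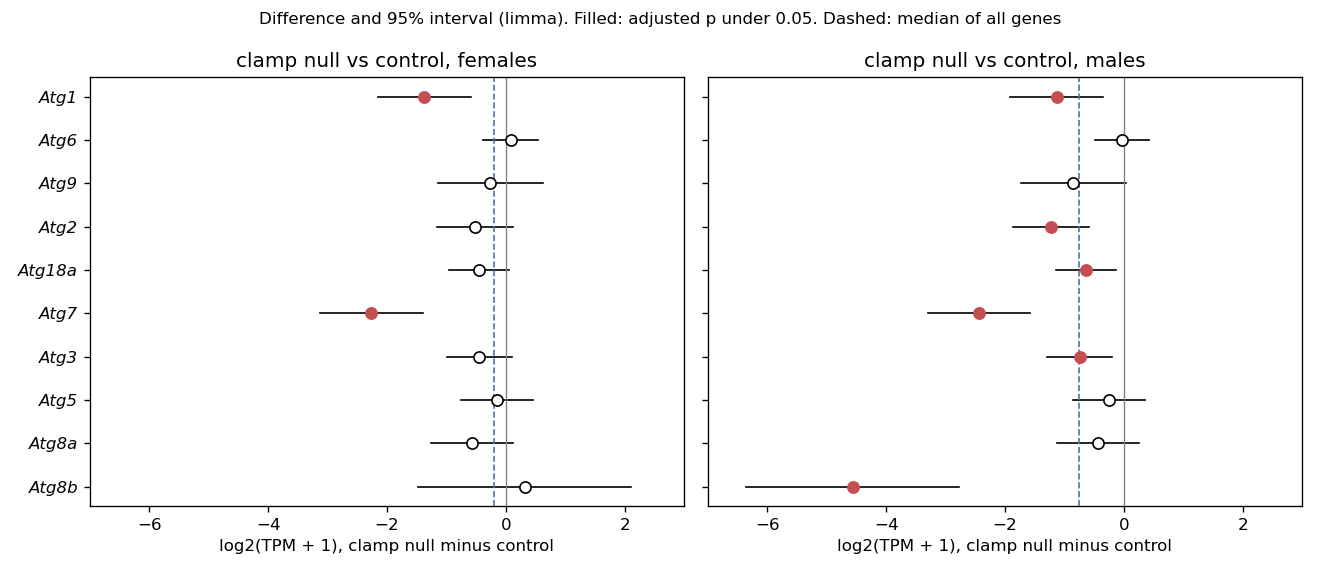
Difference of clamp null from control larvae in log2(TPM + 1) for the 10 genes in females (left) and males (right), with its 95% interval from limma. Filled points passed an adjusted p of 0.05, open points did not, and the dashed line is the median of all 11145 genes. Atg7 lay at -2.26 and -2.44, far below the median in both sexes, whereas Atg3 in males lay on it.

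The scaling bears on the male comparison. TPM fix the total of a library, and glue and storage protein genes took 9.86 to 17.3% of it in controls and 0.442 to 1.86% in clamp null larvae. When each library was divided by a median-of-ratios factor, which sets the typical gene equal, the median of all genes moved from -0.20 to -0.02 in females and from -0.75 to -0.22 in males. Genes called went from 1092 higher and 1742 lower to 1506 higher and 1232 lower in females, and from 1263 and 5103 to 2031 and 3125 in males. Under this scaling Atg1 and Atg7 were called in females, and Atg2, Atg7 and Atg8b in males, and the median of the members was -0.19 and -0.22.

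Atg1 (FBgn0260945, chromosome 3L from 12784429 to 12805116, BDGP6 assembly) encodes the serine/threonine kinase that starts autophagosome formation. Its level in control females 1, 2 and 3 was 16.8, 10.6 and 12.1 TPM, and that in clamp null females 4, 5 and 6 was 5.73, 2.59 and 5.52 TPM. Every clamp null female library lay below every control female library. The mean was 13.2 ± 3.24 TPM in controls against 4.61 ± 1.75 TPM without clamp (SD, n = 3), a log2 difference of -1.37 (standard error 0.36, adjusted p = 0.0153 from limma), or -1.17 relative to the median of all genes. Without control female 1 it was -1.19 (adjusted p = 0.0591) and without clamp null female 5 it was -1.08 (adjusted p = 0.0627), so the call rests on either library.

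In males, Atg1 was at 10.7, 15.5 and 9.10 TPM in the controls against 4.17, 7.49 and 3.24 TPM without clamp. The groups again did not overlap, with clamp null male 5 nearest to the controls. The log2 difference was -1.13 (standard error 0.36, adjusted p = 0.0178 from limma), which is -0.38 relative to the median of all genes. With median-of-ratios scaling it was -0.61 (adjusted p = 0.127). Leaving out control male 2, clamp null male 4 or clamp null male 6 gave -0.93, -1.06 and -0.91 (adjusted p = 0.0758, 0.0544 and 0.0584), none of which passed. It was -1.56 with clamp null male 6 alone in its group (adjusted p = 0.023).

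Atg6 (FBgn0264325, chromosome 3R from 24049180 to 24050782) encodes the fly Beclin, a subunit of the lipid kinase complex that marks the forming membrane. It was the steadiest member, at 15.4 to 21.5 TPM over all 12 libraries. The groups overlapped throughout, and the log2 difference was 0.08 in females (95% interval -0.38 to 0.54) and -0.03 in males (-0.49 to 0.43). Its sign turned with the scaling, to 0.53 in males under median-of-ratios scaling (limma adjusted p = 0.0822).

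**Figure D2:**
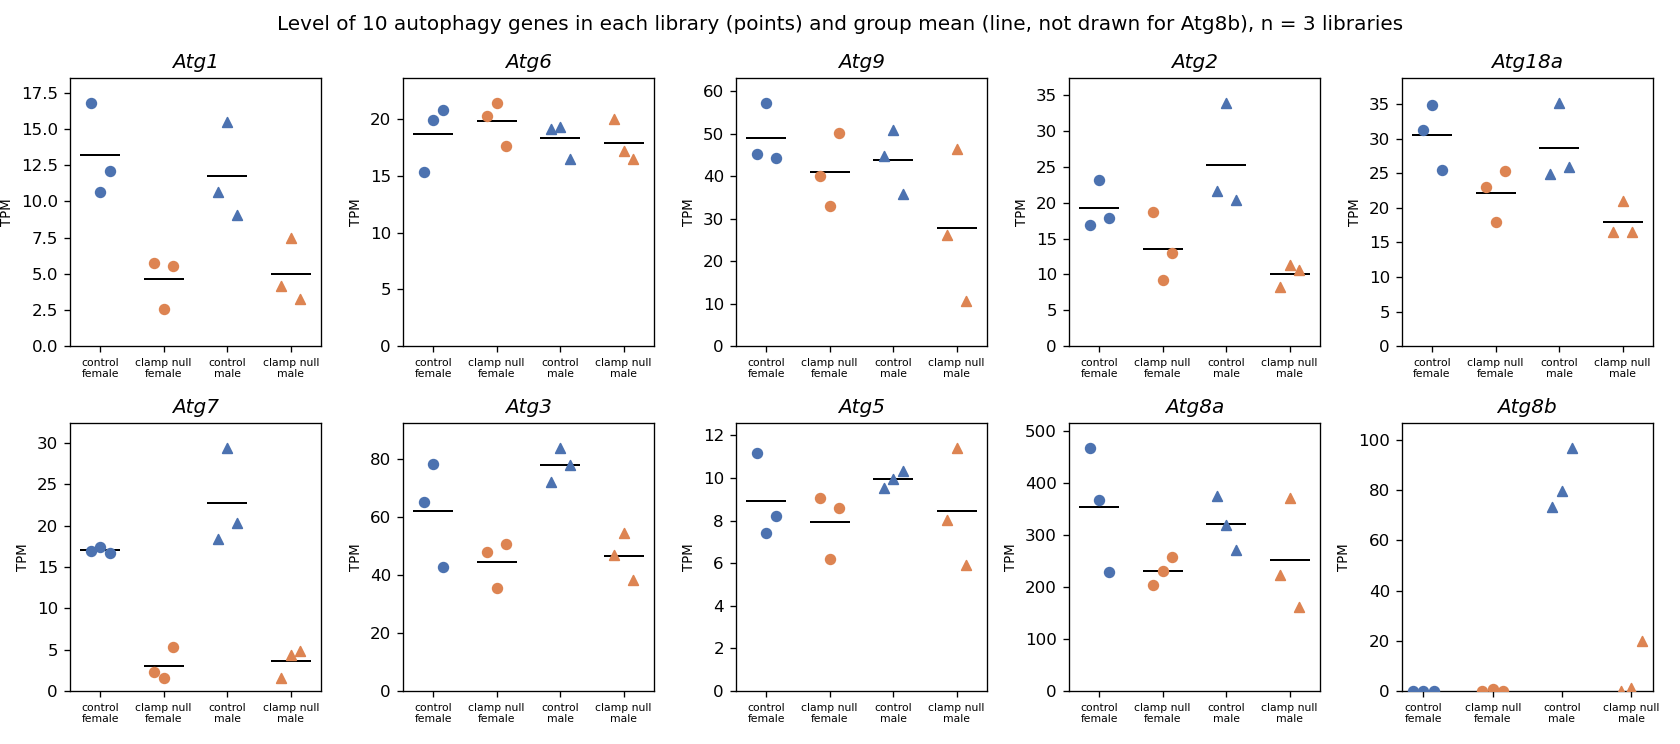
Level of each of the 10 genes in TPM, 1 point per library, for control (blue) and clamp null (orange) females (circles) and males (triangles), with the group mean as a line except for Atg8b. Atg1 and Atg7 were separated by genotype in both sexes, Atg6 lay between 15.4 and 21.5 TPM in every library, and Atg8b was high in the control males alone, at 73.3 to 96.8 TPM.

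Atg9 (FBgn0034110, chromosome 2R from 16294400 to 16297232), the transmembrane protein on the vesicles that seed the membrane, was at 44.3 to 57.2 TPM in control females and 33.0 to 50.1 TPM in clamp null females. In males the controls were at 44.8, 50.8 and 35.7 TPM, and those without clamp at 26.2, 46.4 and 10.6 TPM. The groups overlapped in both sexes, and the clamp null males were spread more widely than any other group of this gene. The log2 difference was -0.26 in females (95% interval -1.14 to 0.63) and -0.85 in males (-1.73 to 0.04, limma adjusted p = 0.0931). The male value was -1.32 without clamp null male 5 (adjusted p = 0.00806) and -0.30 without clamp null male 6. It also passed with the glue and storage protein genes left out of the total, at -1.05, and with library weights, at -0.65 (adjusted p = 0.0417 in each). It was -1.93 with clamp null male 6 alone in its group (adjusted p = 0.00157).

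Atg2 (FBgn0044452, chromosome 3L from 2774338 to 2780677) encodes the lipid transfer protein that feeds the growing membrane. In control males it was at 21.7, 33.96 and 20.4 TPM, and in clamp null males at 8.27, 11.3 and 10.7 TPM. The 2 groups were well apart, with control male 2 the highest of all 12 libraries. The level of 25.3 ± 7.502 TPM in controls and 10.1 ± 1.61 TPM in clamp null males (SD, n = 3) gave a log2 difference of -1.22 (standard error 0.30, adjusted p = 0.00418 from limma), or -0.47 relative to the median of all genes. This call held without each library in turn, and with median-of-ratios scaling it was -0.66 (adjusted p = 0.0437). With clamp null male 6 alone in its group it was -1.14 and did not pass (adjusted p = 0.0552). In females, Atg2 was at 16.9, 23.2 and 17.8 TPM in the controls against 18.6, 9.17 and 12.98 TPM without clamp. These overlapped through clamp null female 4, and the log2 difference of -0.52 (95% interval -1.16 to 0.13) did not pass.

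Atg18a (FBgn0035850, chromosome 3L from 8186857 to 8191118) binds the phosphoinositide made by the Atg6 complex and recruits Atg2. Its level in females was 31.3, 35.0 and 25.5 TPM in controls against 23.0, 17.9 and 25.4 TPM in clamp null libraries. In males it was 24.8, 35.2 and 25.9 TPM against 16.5, 21.0 and 16.6 TPM. The groups did not overlap in either sex, in females only narrowly, by control female 3 and clamp null female 6. The log2 difference was -0.45 in females (95% interval -0.96 to 0.06, adjusted p = 0.18 from limma), and the male value was -0.63 (standard error 0.23, adjusted p = 0.0358), the latter 0.12 above the median of all genes. With median-of-ratios scaling the male value was -0.06 (adjusted p = 0.8). A fit of the male libraries alone gave an adjusted p of 0.0649, and leaving out control male 2 or 3 or clamp null male 4 or 6 gave adjusted p-values of 0.143, 0.0558, 0.0987 and 0.0739. It was 0.0886 with clamp null male 6 alone in its group.

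Atg7 (FBgn0034366, chromosome 2R from 18620466 to 18625044), the E1-like enzyme that activates both Atg8 and Atg12, had the largest fall of the 10 genes in females and the largest in males after Atg8b. Control females were at 17.0, 17.4 and 16.7 TPM, and clamp null females at 2.34, 1.53 and 5.32 TPM. The controls lay within 1 TPM of each other, and the highest clamp null library was less than any of them by more than 10 TPM. The mean of 17.0 ± 0.320 TPM fell to 3.06 ± 1.998 TPM (SD, n = 3), a ratio of 5.56 and a log2 difference of -2.26 (standard error 0.40, adjusted p = 0.00179 from limma), or -2.06 relative to the median of all genes.

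In control males Atg7 was at 18.4, 29.4 and 20.3 TPM, and in clamp null males at 1.53, 4.35 and 4.86 TPM. Again no clamp null library came near a control. The mean was 22.7 ± 5.89 and 3.58 ± 1.79 TPM (SD, n = 3), a ratio of 6.35 and a log2 difference of -2.44 (standard error 0.40, adjusted p = 0.000308 from limma), or -1.69 relative to the median of all genes. Both calls held under each alternative run. The log2 difference lay between -2.63 and -1.97 in females and between -2.66 and -2.06 in males when a library was left out, and with median-of-ratios scaling it was -2.06 and -1.92. With clamp null male 6 alone in its group, Atg7 in males was at -1.99 (adjusted p = 0.0101). This library had the highest level of Atg7 in its group.

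Atg3 (FBgn0036813, chromosome 3L from 18748687 to 18750483), the E2-like enzyme that takes Atg8 from Atg7, was at 72.1, 83.8 and 77.8 TPM in control males and 46.7, 54.5 and 38.3 TPM in clamp null males. These groups did not overlap. The log2 difference was -0.74 (standard error 0.25, adjusted p = 0.0236 from limma), which equals the median of all genes to within 0.01. It was -0.16 with median-of-ratios scaling (adjusted p = 0.552), and it did not pass without control male 2 or 3 or clamp null male 4 or 6 (adjusted p = 0.0729, 0.0581, 0.0523 and 0.0692). In females, 65.0, 78.1 and 42.8 TPM in the controls overlapped with 47.7, 35.4 and 50.5 TPM in the clamp null libraries, with a log2 difference of -0.44 (95% interval -0.99 to 0.10).

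Atg5 (FBgn0029943, chromosome X from 7314622 to 7323770) is joined to Atg12 and helps to place Atg8 on the membrane. Its level was 5.94 to 11.4 TPM over the 12 libraries, with both extremes in clamp null males. The groups overlapped, and the log2 difference was -0.15 in females (95% interval -0.76 to 0.46) and -0.25 in males (-0.86 to 0.36). With median-of-ratios scaling it turned to 0.09 and 0.28.

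Since Atg7 and Atg3 act in turn on Atg8, their levels were also set side by side within each library, which does not depend on the scaling. The ratio of Atg7 to Atg3 was 0.223 to 0.391 in control females and 0.0431 to 0.106 in clamp null females. In males it was 0.256 to 0.351 and 0.0327 to 0.127. The ratio of Atg1 to Atg6 was 0.533 to 1.095 and 0.121 to 0.313 in females, and 0.553 to 0.803 and 0.196 to 0.435 in males. Both ratios were lower in every clamp null library than in every control of its sex. The two-sided exact permutation test gave p = 0.1, the smallest that 3 libraries against 3 allow (0.143 adjusted over the 10 comparisons of ratios made). The pairs were chosen with these levels known, and each sets a fallen member against one that changed less. The ratios thus restate the falls of Atg7 and Atg1 and add no separate support for them. The ratio of Atg1 to Atg13, which encodes a partner of the kinase in the same complex, overlapped in both sexes (exact permutation p = 0.2 and 1, adjusted 0.25 and 1).

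Atg8a (FBgn0052672, chromosome X from 10764878 to 10768338), the ubiquitin-like protein that coats the autophagosome, was the most abundant of the 10 genes, with 46.5 to 68.1% of their summed TPM in a library. In females it was at 468, 366 and 229 TPM in controls against 204, 231 and 257 TPM without clamp. In males it was at 375, 318 and 272 TPM and 224, 371 and 161 TPM. The groups overlapped in both sexes, through control female 3 and clamp null male 5. The log2 difference was -0.56 in females (95% interval -1.25 to 0.13) and -0.43 in males (-1.12 to 0.27), and neither passed the test. In males the sign depended on the scaling, with 0.17 under median-of-ratios scaling, and without clamp null male 5 the difference was -0.75 (adjusted p = 0.0499 from limma).

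The genes whose log2(TPM + 1) followed that of Atg8a most closely over the 12 libraries were CkIalpha, Ptp69D and CaMKI, with Pearson r of 0.940, 0.935 and 0.933 among 11144 genes compared. Of these genes, 18 had an r of at least 0.9. These values share libraries and group differences, and are given as a description.

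Atg8b (FBgn0038539, chromosome 3R from 17724410 to 17725063), the second Atg8 gene of the fly, lies in a single exon and is known for its expression in the male germ line. It was listed at 0 in control females 1, 2 and 3, and in clamp null females 4, 5 and 6 at 0, 0.933 and 0 TPM. In control males it was at 73.3, 79.5 and 96.8 TPM, more than Atg1, Atg5, Atg6 or Atg7. Clamp null males 4, 5 and 6 had 0, 1.11 and 20.05 TPM. All control males were thus high, both female groups were at or near 0, and the clamp null males were low with 1 library between. By limma, Atg8b was higher in control males than in control females (adjusted p = 7.07e-05), and lower in clamp null than in control males, by -4.56 on the log2(TPM + 1) scale (standard error 0.82, adjusted p = 0.000622). That value depends on the pseudocount and was -5.94 with 0.1 in its place. Without clamp null male 6 it was -5.85, with every group but control males at or near 0, so no p-value is read from that fit. With that library alone in its group it was -1.99.

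The level of Atg8b moved with that of testis genes. The summed level of 13 spermatocyte genes was 410 to 431 TPM in control males and 4.36 to 17.5 TPM in control females. In clamp null females it was 0.477 to 4.08 TPM, and in clamp null males 4, 5 and 6 it was 1.79, 9.10 and 120.7 TPM. Of the 13 genes, 0, 5 and 11 reached 1 TPM in clamp null males 4, 5 and 6, against 11 or 12 in control males. The order of the clamp null males was thus the same for Atg8b and for the testis genes. The genes most like Atg8b were CG10748, CG3687 and CG11404, with Pearson r of 0.995, 0.993 and 0.993 over the 12 libraries, and 1390 of 11144 genes had an r of at least 0.9, all points sharing the contrast of the control males with the rest. The part of testis size in the fall of Atg8b was not tested.

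**Figure D3:**
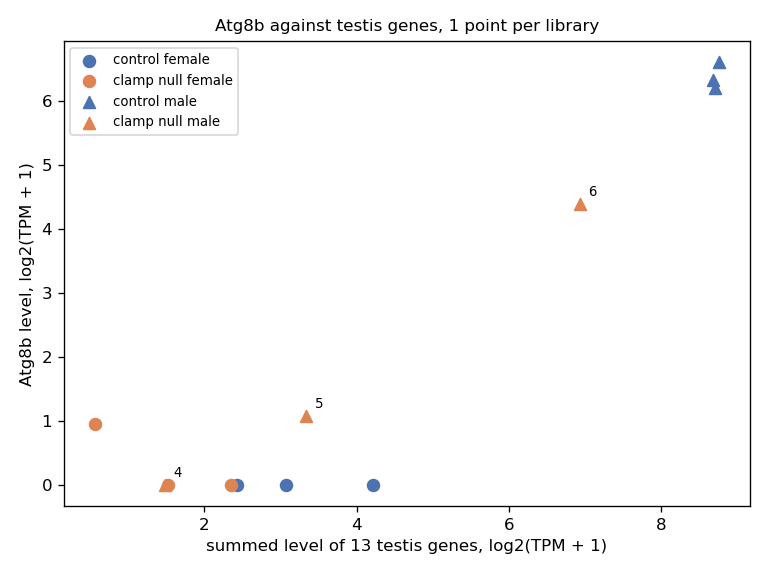
Level of Atg8b against the summed level of 13 testis genes, both as log2(TPM + 1), with 1 point per library and the clamp null males numbered. The 3 control males lie at the upper right, clamp null male 6 between, and clamp null males 4 and 5 among the females.

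Between the sexes, Atg8b was the only member called. Of the 10, 1 was called higher in control males than in control females and 0 lower, where 23.2% of all genes were called higher and 1.56% lower. The other 9 had log2 differences between -0.16 and 0.37, beside a median of 0.34 over all genes. Atg7 was at 18.4 to 29.4 TPM in control males and 16.7 to 17.4 TPM in control females, which did not overlap but did not pass (log2 difference 0.37, adjusted p = 0.578 from limma). In the clamp null larvae, limma called 0 members between the sexes, with 0 at an unadjusted p under 0.05, and 2 of all genes (0.0179%) were called. The log2 difference of Atg8b there was 1.51 (adjusted p = 0.787), and 0.22 without clamp null male 6. The sex of clamp null males 4 and 5 was not settled, and without both, 1369 genes were called higher and 375 lower in males, Atg8b by 4.08 (adjusted p = 0.000266) and Atg9 by -1.84 (adjusted p = 0.00353).

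The interaction of sex and genotype was -4.88 for Atg8b on the log2(TPM + 1) scale, males minus females (standard error 1.16, adjusted p = 0.0131 from limma). Atg8b was listed at 0 in all control females and could not fall there. The value thus restates the difference of -4.56 in males, beside 0.32 in females, and is not read as a separate sex difference. Atg8b was the 1 member of 10 called, where 14.2% of all genes were called with a lower and 0.493% with a higher value in males. With a pseudocount of 0.1 the difference was -7.07 and did not pass (adjusted p = 0.0869 from limma). Without clamp null male 6 it was -6.17, again with every group but control males at or near 0, so no p-value is read from it. For the other 9 members the interaction did not pass. With clamp null male 6 alone in its group, Atg8b gave -2.31 and Atg9 -1.68, which rest on that library. Its level of Atg9 was 10.6 TPM, against 26.2 and 46.4 TPM in clamp null males 4 and 5. In the fit of all libraries, Atg2 had the largest value after Atg8b, -0.71 (95% interval -1.62 to 0.20). The intervals of Atg1, from -0.86 to 1.34, and of Atg7, from -1.40 to 1.04, leave room for sex differences of 1 or more on the log2 scale. That Atg2, Atg3 and Atg18a passed in males and not in females is thus not shown to be a difference between the sexes.

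The order of the levels was led by Atg8a in all 4 groups, in which it did not overlap with the next gene. In control females Atg3 and Atg9 came next and overlapped each other, followed by Atg18a, without overlap with its neighbours. Atg2, Atg6, Atg7, Atg1 and Atg5 then followed, each overlapping with the next, and Atg8b was at 0. In clamp null females Atg7 had moved to the place before Atg8b, overlapping with Atg1, and both lay at or below 5.73 TPM, under the whole range of Atg5. In control males Atg8b ranked directly after Atg8a and overlapped with Atg3. In clamp null males Atg7 was the lowest by its mean, overlapping with Atg1 and Atg8b. Over the 12 libraries, Atg1 and Atg7 had the highest correlation of log2(TPM + 1) between any 2 members, at r = 0.878, and Atg5 and Atg6 the lowest, at -0.424. These r share the contrast of the genotypes and are descriptions.

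The files hold 22 transcripts of the 10 genes, 19 of which had a mean of at least 1 TPM. Since transcripts of a gene share most of their bases, the division of reads between them is less certain than their sum. In males 4 were called lower besides Atg8b-RB, where 27.7% of the 17436 transcripts tested were called lower. They were Atg2-RA (log2 difference -1.03, adjusted p = 0.0267), Atg3-RA (-0.74, adjusted p = 0.0444), Atg7-RB (-2.60, adjusted p = 0.0173) and Atg8b-RA (-3.87, adjusted p = 0.00647), all from limma. Atg3-RA is the only transcript of its gene, so its values repeat those of Atg3. Atg8b-RB is only described and not counted, since it was listed at 0 in all 9 libraries outside control males and passed the filter through these alone. With clamp null male 6 alone in its group, the first 4 did not pass (adjusted p of 0.0834 to 0.357). With median-of-ratios scaling Atg2-RA, Atg3-RA and Atg7-RB did not pass (-0.47, -0.16 and -2.19), and each of these calls was also lost without 1 of several libraries. Atg2-RA failed without control male 1 or 2 or clamp null male 4, and Atg7-RB without control male 2 or 3 or clamp null male 4 or 5. Atg3-RA failed in 8 of the 12 fits that left out 1 library, with an adjusted p of up to 0.116 without control male 2, and with no filter on low values or the male libraries alone (adjusted p = 0.0572 and 0.0524). In females limma called 0, with 6 at an unadjusted p under 0.05, where 6.58% of all transcripts were called lower.

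Atg7 has a longer form, Atg7-RA of 684 codons, and a shorter one, Atg7-RB of 510 codons. In control females Atg7-RA was at 10.3, 13.3 and 0.436 TPM and Atg7-RB at 6.69, 4.12 and 16.3 TPM. The libraries thus disagreed on the form while agreeing on the gene's sum. In clamp null females Atg7-RA was at 2.34, 1.53 and 1.47 TPM and Atg7-RB at 0, 0 and 3.86 TPM. Atg7-RB overlapped between the genotypes in neither sex, and was listed at 0 in clamp null females 4 and 5 and clamp null males 4 and 5. In control males Atg7-RA held 57.4 to 71.0% of the gene and in clamp null males 48.7 to 100%, which overlapped.

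Atg1-RA carried most of Atg1, at 9.21 to 16.8 TPM in control females and 2.59 to 5.73 TPM in clamp null females, without overlap (log2 difference -1.25, adjusted p = 0.0765 from limma). Atg1-RB was at or below 4.99 TPM in all libraries and listed at 0 in 7. Atg2-RA and Atg2-RB have the same 1906 codons and lengths of 6259 and 6266 bases. In females Atg2-RA fell below the controls in every clamp null library, from 16.9, 23.2 and 17.8 TPM to 9.48, 5.41 and 12.4 TPM (log2 difference -1.06, adjusted p = 0.0522), while Atg2-RB was listed at 0 in the controls and was at 9.17, 3.76 and 0.605 TPM in the clamp null libraries. In males Atg2-RB had the opposite order, at 1.73, 8.94 and 2.95 TPM in controls against 0, 0 and 1.30 TPM without clamp. Listed at 0 in control females, Atg2-RB could not fall there, and reads are divided between forms so alike with little certainty. Its effect of genotype differed between the sexes by -3.94 (standard error 0.98, adjusted p = 0.0332 from limma). This call was lost with median-of-ratios scaling, with a replicate block, with clamp null male 6 alone in its group (-3.14, adjusted p = 0.2), and in 9 of the 12 fits that left out 1 library, whose values ran from -4.65 to -3.31. Only those without control male 1, clamp null female 6 or clamp null male 6 kept it.

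Atg3-RA, Atg5-RA, Atg6-RA and Atg9-RA are the only transcripts of their genes in the files, so that their levels are those of the genes. Atg8a-RA held 95.9 to 100% of Atg8a in every library. The minor Atg8a-RB was at 9.18, 14.9 and 2.89 TPM in control females and 3.28, 0 and 0 TPM in clamp null females, which overlapped and did not pass (log2 difference -2.40, adjusted p = 0.0559 from limma). Atg18a-RD was the main form of Atg18a, at 16.7 to 20.0 TPM in control females and 12.4 to 19.4 TPM in clamp null females. Atg18a-RA was at 2.91, 4.88 and 3.12 TPM in control females, listed at 0 in all 6 clamp null libraries, and in control males at 0, 10.04 and 0 TPM. Atg18a-RB, Atg18a-RC and Atg18a-RE were at most 2.79, 4.19 and 6.95 TPM in a library, overlapped between the genotypes in both sexes, and were not called. Atg8b-RA and Atg8b-RB hold the same 120 codons in 1 exon. Atg8b-RA was called higher in control males than in control females, where 14.1% of all transcripts were. Atg8b-RB was at 11.6, 48.7 and 28.2 TPM in control males and listed at 0 in every other library, so 3 of the 4 groups have no spread and nothing is read from its tests.

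**Figure D4:**
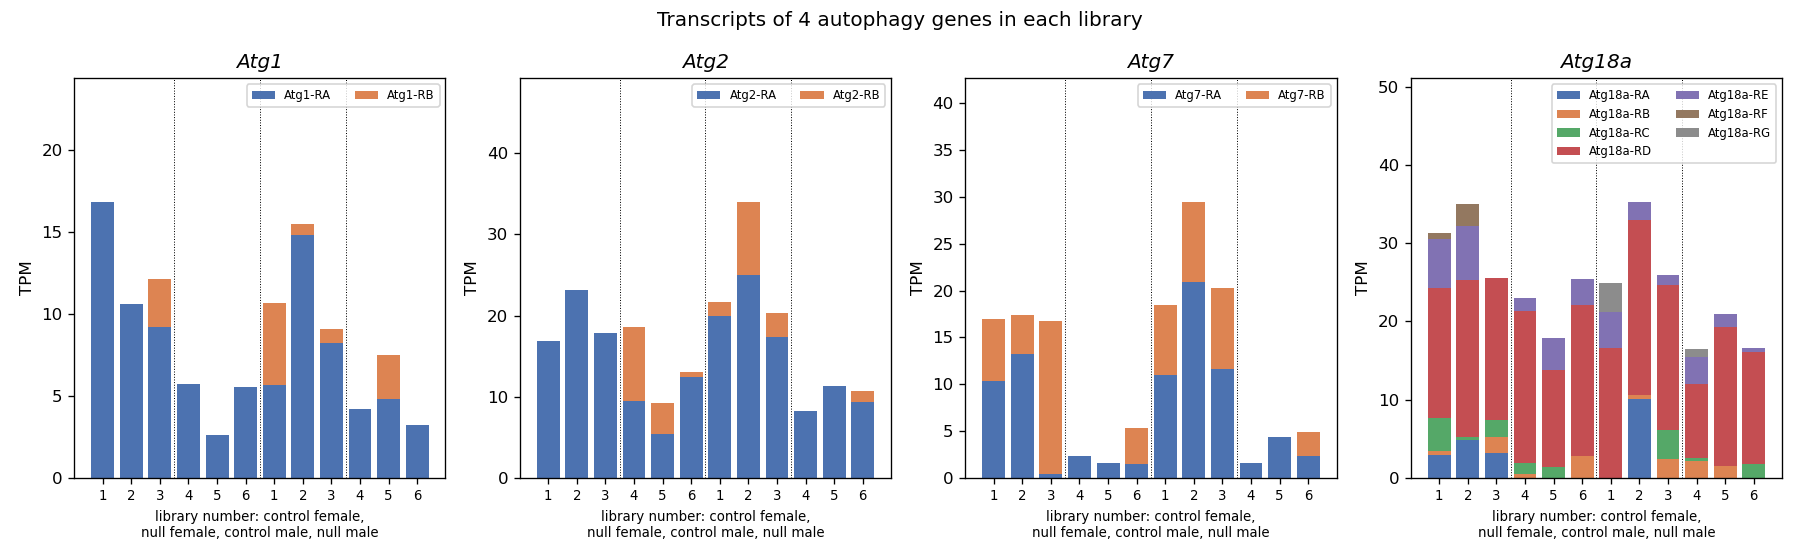
TPM of each transcript of Atg1, Atg2, Atg7 and Atg18a, stacked, in the 12 libraries (numbers 1 to 3 control and 4 to 6 clamp null, females left and males right of the middle dotted line). The sum of Atg7 in control females was 16.7 to 17.4 TPM although Atg7-RB ranged from 4.12 to 16.3 TPM, and Atg2-RB was seen in clamp null females and control males.

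The other genes of autophagy, of lysosomes and of nutrient control were taken from 8 lists by role, which hold 62 genes including the members. Of the 52 others, 51 were tested, and females had 2 called higher and 7 lower, and males 1 called higher and 18 lower, beside 9.8% and 15.6% and 11.3% and 45.8% of all genes. Their median log2 difference was -0.26 in females and -0.59 in males, beside -0.20 and -0.75 over all genes. In both sexes 7 were lower and 1 was higher, beside 13% and 7.09% of all genes, so the count of lower genes was close to that of all genes. With median-of-ratios scaling, the 61 tested genes gave 4 higher and 7 lower in males, against 1 and 24. Of all genes, 18.4% were then called higher and 28.4% lower, against 11.3% and 45.8%.

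Among the partners of Atg1 and Atg6, Atg13, a subunit of the Atg1 complex, was at 8.66 to 11.4 TPM in control females and 3.74 to 6.58 TPM in clamp null females (log2 difference -0.85, adjusted p = 0.0336 from limma), and in males the log2 difference was -1.14 (adjusted p = 0.00327). Uvrag, a partner of Atg6, differed by -0.86 (adjusted p = 0.0353) and -1.36 (adjusted p = 0.00119). Of the 4 genes of the Atg1 complex, 2 were called lower in females and 2 in males, Atg17 and Atg101 in neither sex. Of the 5 genes of the Atg6 complex, 1 was called lower in females and 3 in males. Of all genes, 15.6% were called lower in females and 45.8% in males. These complexes hold too few genes to compare with such shares, and a fall particular to them was not tested. With median-of-ratios scaling Atg13 passed in neither sex (adjusted p = 0.0873 and 0.0595) and Uvrag in males only. The female call of Atg13 was also lost without control female 1 or 2 or clamp null female 5 or 6 and with the female libraries alone, and that of Uvrag without control female 2 or 3, any clamp null female or control male 1.

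Atg18b, a relative of Atg18a, was at 16.9 to 26.1 TPM in control females and 6.26 to 7.23 TPM in clamp null females, with a log2 difference of -1.47 (adjusted p = 0.00459 from limma), and a male value of -1.06 (adjusted p = 0.0106). The male call was lost with median-of-ratios scaling (-0.52) and without control male 2. Atg4a, the protease that trims Atg8 before Atg7 acts on it, went from 73.9 to 91.8 TPM in control females to 33.9 to 42.7 TPM in clamp null females, and in males from 79.8 to 95.4 TPM to 29.7 to 39.8 TPM. The log2 differences were -1.06 and -1.39 (adjusted p = 0.00263 and 0.000136). Both calls of Atg4a held under every alternative run.

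Atg10, the E2-like enzyme that joins Atg12 to Atg5, was the 1 gene called higher in both sexes. Control females had 10.03, 8.16 and 11.9 TPM and clamp null females 91.3, 54.8 and 117.9 TPM, and control males had 15.2, 16.0 and 13.4 TPM and clamp null males 44.2, 135.3 and 18.5 TPM. Every clamp null library was above every control of its sex, by a wide margin in females, whereas clamp null male 6 was near the controls. The log2 difference was 2.96 in females (adjusted p = 0.00235 from limma), and the male value was 1.64 (adjusted p = 0.0217), the latter lost without clamp null male 5 (0.90), without control male 1 or 3, in a fit of the male libraries alone, and with clamp null male 6 alone in its group (0.30, adjusted p = 0.563). Within one enzyme chain, Atg10 thus rose while Atg7 fell. The other gene called higher in females, named here after its value was seen, was chico, the insulin receptor substrate (1.85 to 6.44 TPM in controls, 10.5 to 16.4 TPM in clamp null females, log2 difference 1.59, adjusted p = 0.0163). This call was lost without control female 3 or clamp null female 4, with an adjusted p of up to 0.0601.

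**Figure D5:**
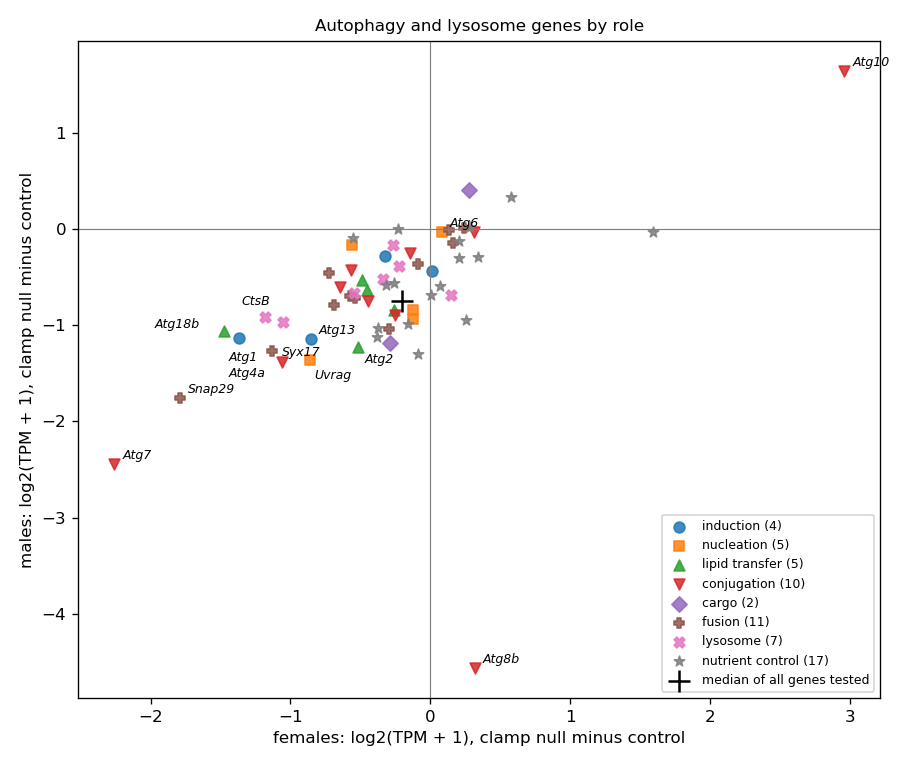
Difference of clamp null from control larvae in log2(TPM + 1), females on the horizontal and males on the vertical axis, for 61 genes of 8 lists by role, with the number tested in each list. The cross marks the median of all genes, -0.20 in females and -0.75 in males, and Atg7 and Snap29 lie lowest on both axes together, Atg10 highest, and Atg8b low in males only.

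Of the 11 genes that fuse the autophagosome with the lysosome, 2 were called lower in females and 4 in males, beside 15.6% and 45.8% of all genes. The 2 called in both sexes (13% of all genes) were the SNARE proteins Snap29 and Syx17, which pair in this step. Snap29 was at 33.98, 55.5 and 47.8 TPM in control females and 9.70, 11.1 and 17.0 TPM in clamp null females. In males it was at 52.9, 67.7 and 61.2 TPM and 15.3, 22.4 and 14.6 TPM. The genotypes were widely apart in both sexes, with log2 differences of -1.79 and -1.76 (adjusted p = 0.000827 and 0.000241 from limma). Syx17 differed by -1.13 and -1.27 (adjusted p = 0.00822 and 0.00151), and all 4 calls held under every alternative run. Of the lysosomal genes, CtsB, a cathepsin protease, fell by 1.18 on the log2 scale in females (adjusted p = 0.0131) and by 0.91 in males (adjusted p = 0.0211). The female call was lost without control female 2 or clamp null female 5, and the male call without control male 2 or clamp null male 6, with the male libraries alone, and with median-of-ratios scaling (-0.32).

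Of 17 genes of nutrient control tested, females had 1 called higher and 0 lower, and males 0 called higher and 5 lower. All genes had 9.8% higher and 15.6% lower, and 11.3% and 45.8%, so this share of lower calls was below that of all genes in both sexes. Mitf, the factor that drives lysosomal genes, differed by 0.15 in females and -0.69 in males (adjusted p = 0.878 and 0.173 from limma). The kinase mTor, which holds Atg1 in check, differed by -0.37 in females (adjusted p = 0.396) and fell by 1.03 in males (adjusted p = 0.00964), a call lost with median-of-ratios scaling (-0.54, adjusted p = 0.0912). Thor, a translation inhibitor that mTor keeps in check, differed by 0.58 and 0.34 (adjusted p = 0.214 and 0.381). The cargo receptor ref(2)P, whose protein is broken down by autophagy, was at 96.1 to 101.1 TPM in control females and 107.6 to 141.3 TPM in clamp null females, which did not overlap but did not pass (log2 difference 0.28, adjusted p = 0.462). In males it was at 70.4 to 121.3 and 91.9 to 153.6 TPM, which overlapped (log2 difference 0.41, adjusted p = 0.171).

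Of 6 ecdysone response genes, which act upstream of larval autophagy, 5 were tested, and 2 were called lower in females and 5 in males, beside 15.6% and 45.8% of all genes. The transcription factor br was at 156.9, 75.7 and 48.2 TPM in control females and 11.97, 7.36 and 23.1 TPM in clamp null females, and in males at 73.0 to 126.4 and 2.83 to 15.2 TPM. The groups did not overlap, and the log2 differences were -2.61 and -3.96 (adjusted p = 0.00653 and 0.000156 from limma). Those of Eip75B, a nuclear receptor, were -1.67 and -2.22 (adjusted p = 0.00931 and 0.00056), and these calls held under every alternative run. Eip93F, which is needed for autophagy in the dying larval midgut, stayed below 1 TPM in all 12 libraries and was not tested. The part of stage and hormone state in the levels of Atg1 and Atg7 was not tested.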

How the data were processed

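The 12 libraries hold poly-A RNA of whole L3, with 3 libraries for each sex of the control (yw) and the clamp null genotype. The authors quantified transcripts in their time2splice pipeline and deposited TPM per transcript, each library summing to 1000000. TPM keep no read count, so the depth and the counting error of a value are unknown, and the number of libraries limits the precision. Libraries were grouped by sex and genotype from their titles. A sex field of the labels conflicts with these and was not used, and the sex of clamp null males 4 and 5 was not settled by the values examined.

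Gene membership of transcripts was read from Ensembl release 115 (BDGP6.54), a later release than that of the authors for the dm6 genome. It held 29926 of 29936 transcripts, and the other 10 (at most 58.0 TPM in a library) were left out. No member shared exonic bases with another annotated gene. Sequences are not shown here.

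Genes (TPM summed over transcripts) and transcripts with a mean of at least 1 TPM entered 1 fit of log2(TPM + 1) on the 4 group means of all 12 libraries, with limma 3.58.1 (R 4.3.3) and its mean-variance trend. Differences are on this scale, which understates changes of low genes. P-values were adjusted by Benjamini-Hochberg over all 11145 genes or 17436 transcripts, and called under 0.05. Ratios and transcript shares were set against each other by exact permutation, with 0.1 as the smallest p. Tables and figures were made with Python 3.11.15, numpy 2.4.6, pandas 2.3.3, scipy 1.17.1 and matplotlib 3.10.9. Tested on simulated data for the female comparison, with 11145 genes, limma recovered 20 of 93 genes with a log2 change of 1. It recovered 82 of 107 with a change of 2, and the whole run had 6 false calls. Only these 93 and 107 genes were changed, each with a control female mean above 2 on the log2(TPM + 1) scale, and the noise was drawn as normal. More genes were called in the real female comparison, 1092 higher and 1742 lower. The share of changed genes recovered there was not tested.

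The members, the lists and the tests were chosen with earlier results of these data known. All members are named, as are their transcripts with a mean of at least 1 TPM. Other pathway genes are named where they were among the 2 largest rises or falls of their list and called the same way in both sexes, with Eip93F, Mitf, mTor, Thor and ref(2)P whatever their values. For Atg8a and Atg8b, the 3 genes with the highest correlation are named. Alternatives were the pseudocount (0.1 and 0.5), the filter (none, or 5 TPM), median-of-ratios scaling, totals without glue and storage protein genes, totals without the 627 genes seen only in control males and clamp null male 6 alone in its group (both added after seeing the data), fits of the compared groups alone, library weights, a replicate block, and leaving out each library.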

Additional observations from a re-analysis of the deposited data

Results flagged for a closer look

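The interaction of sex and genotype for Atg8b was -4.88 on the log2(TPM + 1) scale (males minus females, adjusted p = 0.0131 from limma). The gene was at 0 in control females and could not fall there, so this value restates its fall in males. The interaction did not pass with a pseudocount of 0.1 (-7.07, adjusted p = 0.0869), and was -2.31 with clamp null male 6 alone in its group. The gene was listed at 0 in all control females and was at 0, 0.933 and 0 TPM in clamp null females, against 73.3 to 96.8 TPM in control males and 0, 1.11 and 20.05 TPM in clamp null males. The effect of genotype on Atg2-RB differed between the sexes by -3.94 (adjusted p = 0.0332 from limma). Its length of 6266 bases is close to the 6259 bases of Atg2-RA, so the division of reads between them is uncertain. Atg2-RB was at 0 TPM in each control female, where it could not fall, and at 0.605 to 9.17 TPM in clamp null females. In males it was at 1.73 to 8.94 TPM in controls and 0 to 1.30 TPM without clamp. This call was lost with median-of-ratios scaling, with a replicate block (adjusted p = 0.104), with clamp null male 6 alone in its group (adjusted p = 0.2) and in 9 of the 12 fits that left out 1 library. The sex of clamp null males 4 and 5 was not settled, which bears on both results. The sum of Atg2 gave an interaction of -0.71 (adjusted p = 0.326).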

How the results depend on the processing

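The fall of Atg7 in both sexes, that of Atg8b in males, and the sex difference of Atg8b in controls kept direction and call under every alternative, and that of Atg2 in males under all but 1. Of the fits of single members, 455 kept both, 20 lost a call, 6 gained one and 15 turned the sign of a value that was not called. The cause of these changes was not tested. Leaving out 1 library, 1 to 2 members were called in females and 3 to 8 in males, 0 to 3 transcripts in females, 2 to 6 in males, 1 to 3 for the interaction, and for the 61 pathway genes 7 to 12 in females, 14 to 30 in males, 1 to 3 between control sexes and 1 to 3 for the interaction. With median-of-ratios scaling 3 members, 2 transcripts and 11 pathway genes were called in males, 1 transcript for the interaction and 2 pathway genes between control sexes. With a pseudocount of 0.1 the interaction called 0 members and 0 pathway genes, and 1 transcript was called in females. A minimum of 5 TPM gave 1 transcript in females and 1 for the interaction. Without glue and storage protein genes in the total, 4 transcripts were called in females and 8 in males. Of all 17881 transcripts, 846 were then called higher and 1638 lower in females, and 1149 and 5646 in males. The compared groups alone gave 1 transcript in females and 3 pathway genes between control sexes. With clamp null male 6 alone in its group, 2 transcripts were called in males, 2 members, 2 transcripts and 7 pathway genes between the sexes without clamp, and 2 members and 4 pathway genes for the interaction. Library weights gave 2 transcripts in females, and 38 pathway genes in males, 7 between control sexes and 4 for the interaction. Over all 11145 genes, weights called 1567 higher and 6128 lower in males, 3473 and 586 between control sexes, and 238 and 2657 for the interaction. Transcript counts in males and for the interaction include Atg8b-RB, from whose tests nothing is read. The counts of this paragraph describe how calls moved with the settings, as those of all features did, and are not read as results about these genes.

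Signs turned for values near 0. Atg5 in females was 0.088 with median-of-ratios scaling, 0.017 with library weights and -0.257 to 0.007 with 1 library left out, and in males 0.28 with median-of-ratios scaling. Atg6 in females was -0.10 without glue and storage protein genes, -0.009 with weights and -0.045 to 0.162 with 1 library left out. In males it was 0.53 with median-of-ratios scaling, 0.073 with weights and -0.108 to 0.022 with 1 library left out. With median-of-ratios scaling Atg9 in females was 0.003 and Atg8a in males 0.17.

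Library numbers do not pair the genotypes. Between the sexes, deviations of same-numbered libraries from their group means correlated at -0.077 to 0.264, and those of other numbers at -0.240 to 0.113. The highest were those of controls 1 (0.264) and 3 (0.146), so a link by number among controls was not excluded. Numbers were not taken as pairs in the main fit. With a replicate block, the only transcript called for the interaction was Atg8b-RB, whose tests are not read. Atg2-RB did not pass (-3.94, adjusted p = 0.104 from limma), and 3 pathway genes were called between control sexes. The block could not be fitted between genotypes. Depth is unknown, so levels near 0, such as those of Atg8b outside control males and of minor transcripts, have no counting error.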
